A study of Mus musculus with 4 samples.

Results

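The genes described here are the 5 subunits of the transcription factor NF-kB and 5 genes that restrain or modify it: Nfkb1, Nfkb2, Rel, Rela and Relb, and Nfkbia, Nfkbie, Nfkbiz, Bcl3 and Tnfaip3. They were chosen by name, with earlier results of these data known, and they are 10 of the 32285 genes in the count tables. Their levels were read in livers of male mice that had developed in control mothers (Ctrl) or in mothers whose blood sugar was high while pregnant (IHG, for intrauterine hyperglycemia), as fetuses at E18.5 (late gestation) or as adults at 8 weeks. Each of the 4 groups is 1 droplet single-cell library, pooled from 3 pregnant mice (fetal) or 3 adult animals. The strain and the way hyperglycemia was produced are not given in the sources used here. Fetal livers were collected by caesarean section, adult livers were perfused through the portal vein, and both were digested with enzymes and treated to lyse red cells. With 1 library a group there is no test: intervals below are 95% intervals of counting error alone, and they do not cover differences between animals, pools or captures.

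NF-kB is a family of dimers that wait in the cytoplasm, bound by inhibitor proteins of the IkB family. When receptors for cytokines or microbial products activate the IkB kinases, the inhibitor is degraded and the dimer enters the nucleus, where it turns on genes of inflammation and cell survival. Several of those genes encode the brakes themselves: Nfkbia (IkB alpha) and Nfkbie (IkB epsilon) retain dimers in the cytoplasm again, and Tnfaip3 (A20) removes the ubiquitin chains that carry the signal to the kinases. Nfkbiz (IkB zeta) and Bcl3 are nuclear members of the IkB family that work as cofactors at a subset of targets. Nfkb2, Rel and Relb are themselves among the known targets, while Rela is mostly made at a steady level. The fetal liver is a blood-forming organ, so neutrophil precursors and developing B cells are abundant in it.

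Since Nfkbia, Tnfaip3, Nfkb2 and Rel are textbook targets of NF-kB and were all lower in fetal IHG neutrophil lineage cells, with counting intervals below 0, their promoter sequences are shown. That of Rela, whose interval included 0 there, is shown beside them. RefSeq promoter windows (GRCm38.p6, 250 bases before to 50 after a start) were found for 7 of the 10 genes, all but Nfkb1, Relb and Nfkbiz. The NF-kB consensus motif was searched on both strands and its matches, which may overlap, stand in capitals. Of the 32851 windows of this length in the table, 8.46% held a match, and so did 8 of the 10 windows of these 7 genes. By gene, 6 of the 7 held a match. Nfkb2 has 3 windows, all with a match, and Tnfaip3 has 2, of which the second held none. Windows 2 and 3 of Nfkb2 overlap and share a match, so they are not separate cases. The first window of Nfkb2 and of Tnfaip3 is printed. The window of Rela held none. A match is a run of letters, not a binding site. The printed genes were picked as known targets or from their ratios in these data, so the matches are a description only. Any link between matches and levels was not tested. Each window is written 5′ to 3′ on its gene's strand.
Nfkbia (chr12:55492598-55492897, minus strand): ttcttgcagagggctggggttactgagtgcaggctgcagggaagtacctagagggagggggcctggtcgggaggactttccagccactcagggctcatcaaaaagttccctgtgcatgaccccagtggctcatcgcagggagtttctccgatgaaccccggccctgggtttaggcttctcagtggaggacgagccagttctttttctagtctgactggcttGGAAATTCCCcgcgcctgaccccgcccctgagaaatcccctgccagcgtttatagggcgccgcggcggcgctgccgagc
Tnfaip3 (chr10:19015361-19015660, minus strand): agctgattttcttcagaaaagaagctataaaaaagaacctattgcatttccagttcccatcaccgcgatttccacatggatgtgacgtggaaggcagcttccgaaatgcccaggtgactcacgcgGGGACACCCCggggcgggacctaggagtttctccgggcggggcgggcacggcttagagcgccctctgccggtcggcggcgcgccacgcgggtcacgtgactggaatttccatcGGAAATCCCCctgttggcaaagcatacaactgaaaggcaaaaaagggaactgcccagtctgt
Nfkb2 (chr19:46304487-46304786, plus strand): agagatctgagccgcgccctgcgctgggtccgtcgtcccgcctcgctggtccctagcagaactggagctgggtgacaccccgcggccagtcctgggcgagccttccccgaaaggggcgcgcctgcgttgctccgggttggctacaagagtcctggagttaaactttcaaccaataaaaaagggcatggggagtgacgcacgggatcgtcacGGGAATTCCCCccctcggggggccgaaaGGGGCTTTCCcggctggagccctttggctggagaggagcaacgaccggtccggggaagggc
Rel (chr11:23770920-23771219, minus strand): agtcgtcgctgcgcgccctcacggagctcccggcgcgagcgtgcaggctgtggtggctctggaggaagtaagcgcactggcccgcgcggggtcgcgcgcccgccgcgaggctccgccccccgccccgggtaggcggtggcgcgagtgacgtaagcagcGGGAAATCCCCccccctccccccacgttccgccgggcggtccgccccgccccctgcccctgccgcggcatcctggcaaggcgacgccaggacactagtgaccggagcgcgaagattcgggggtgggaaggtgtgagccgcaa
Rela (chr19:5637291-5637590, plus strand): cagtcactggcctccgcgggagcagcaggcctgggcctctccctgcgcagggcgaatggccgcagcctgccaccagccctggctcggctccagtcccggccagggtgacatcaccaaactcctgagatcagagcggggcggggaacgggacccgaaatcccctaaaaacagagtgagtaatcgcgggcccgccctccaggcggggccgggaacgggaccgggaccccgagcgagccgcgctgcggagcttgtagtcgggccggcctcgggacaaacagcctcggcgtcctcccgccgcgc
For Nfkbie and Bcl3 the stretch around the match is enough to show it.
Nfkbie: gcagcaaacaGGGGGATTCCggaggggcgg
Bcl3: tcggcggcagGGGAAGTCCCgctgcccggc

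The libraries held 5245 to 8739 barcodes and 17987173 to 105382968 unique molecular identifiers (UMIs, counts of captured RNA molecules), and medians per barcode were 2235 and 2558 in the adult libraries against 6645 and 9116 in the fetal ones. Pairs of libraries shared 8 to 26 barcodes. Clusters were named from marker genes, and "X-like" means only that. The fetal Ctrl library carried more haemoglobin RNA (35.4% of UMIs over all its barcodes, against 20.4% in IHG) and more cells rich in mitochondrial RNA. No adult cluster could be called hepatocyte-like, so the main cell type of the adult liver is not represented, and most adult cells were lymphocytes. A gene's level is given in CPM, its share of all UMIs summed over a class or cluster on the usual scale. A ratio is log2 of IHG over Ctrl, computed with 0.5 added to each count.

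Each of the 10 genes had its own order of cell classes, given here over classes of at least 50 cells in a library. Among the subunits, Rel (c-Rel, the lymphoid subunit; chr11:23736847-23770970 on mm10) stood at 1315 CPM in adult Ctrl and 1378 in adult IHG B-like cells. The next named class was endothelial-like cells at 307 CPM in adult Ctrl and neutrophil-like cells at 313 in adult IHG. Their intervals lay apart from those of B-like cells. Adult cluster 9, which stayed unnamed and is not among the classes, had 706 CPM of Rel in Ctrl and 681 in IHG. In the fetal Ctrl library Rel was led by monocyte-like cells at 139 CPM and B-like cells at 126, whose intervals overlapped. Nfkb1, which encodes a precursor processed to a DNA-binding subunit (chr3:135584655-135691547), was highest in adult B-like cells at 314 CPM in Ctrl, overlapping endothelial-like cells at 285, and at 261 in IHG. Rela, which carries the main activation domain (chr19:5637483-5648130), was highest in adult cholangiocyte-like cells at 170.5 CPM in Ctrl and 144 in IHG, overlapping neutrophil-like cells in both. Nfkb2 (chr19:46304320-46312385) and Relb (chr7:19606217-19629438) are the pair of the alternative pathway. Over adult Ctrl classes Nfkb2 ran from 40.1 to 73.7 CPM and Relb from 29.8 to 90.7. In that library the highest class of each, neutrophil-like cells, overlapped the second, B-like cells, within counting error.

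The inhibitors were spread differently over the same classes of at least 50 cells. Tnfaip3 (chr10:19000910-19015657) was highest in adult NK and innate lymphoid-like cells, at 1378 CPM in Ctrl and 1257 in IHG, followed by T-like cells at 995 and 916, with intervals apart. Nfkbiz (chr16:55811375-55838899) was uneven: adult Ctrl mesothelial-like cells had 765 CPM and neutrophil-like cells 759.8, which overlapped, while monocyte-like cells had 138, T-like cells 188 and B-like cells, the lowest of these classes, 89.7. Nfkbia (chr12:55489410-55492647) was present in every class, from 113 CPM in fetal IHG megakaryocyte-like cells to 3119 in adult IHG neutrophil-like cells. Among fetal classes Nfkbie (chr17:45555703-45563169) was highest in B-like cells, at 56.8 CPM in Ctrl and 24.6 in IHG. Those intervals overlapped monocyte-like cells in Ctrl and macrophage-like cells in IHG. In adults Nfkbie was highest in neutrophil-like cells, at 105 in Ctrl, overlapping B-like cells at 96.4, and at 167 in IHG. Among adult classes Bcl3 (chr7:19808462-19822770) was highest in neutrophil-like cells, at 108 CPM in Ctrl and 104 in IHG, and monocyte-like cells, at 95.8 and 132. The intervals of these classes overlapped in both libraries. Adult Ctrl mesothelial-like cells had 77.0 CPM. In the fetus monocyte-like cells led, at 25.9 CPM in Ctrl and 29.6 in IHG. They overlapped endothelial-like cells in Ctrl and megakaryocyte-like cells in IHG. Fetal neutrophil-like cells had 7.98 CPM in Ctrl and 2.59 in IHG. All 10 are protein-coding in GENCODE M21. Genes annotated on the other strand overlap Nfkb2 and Bcl3, and 1 on the same strand overlaps Nfkb1. Whether counting used strand is not given in the sources used here.

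**Figure D1:**
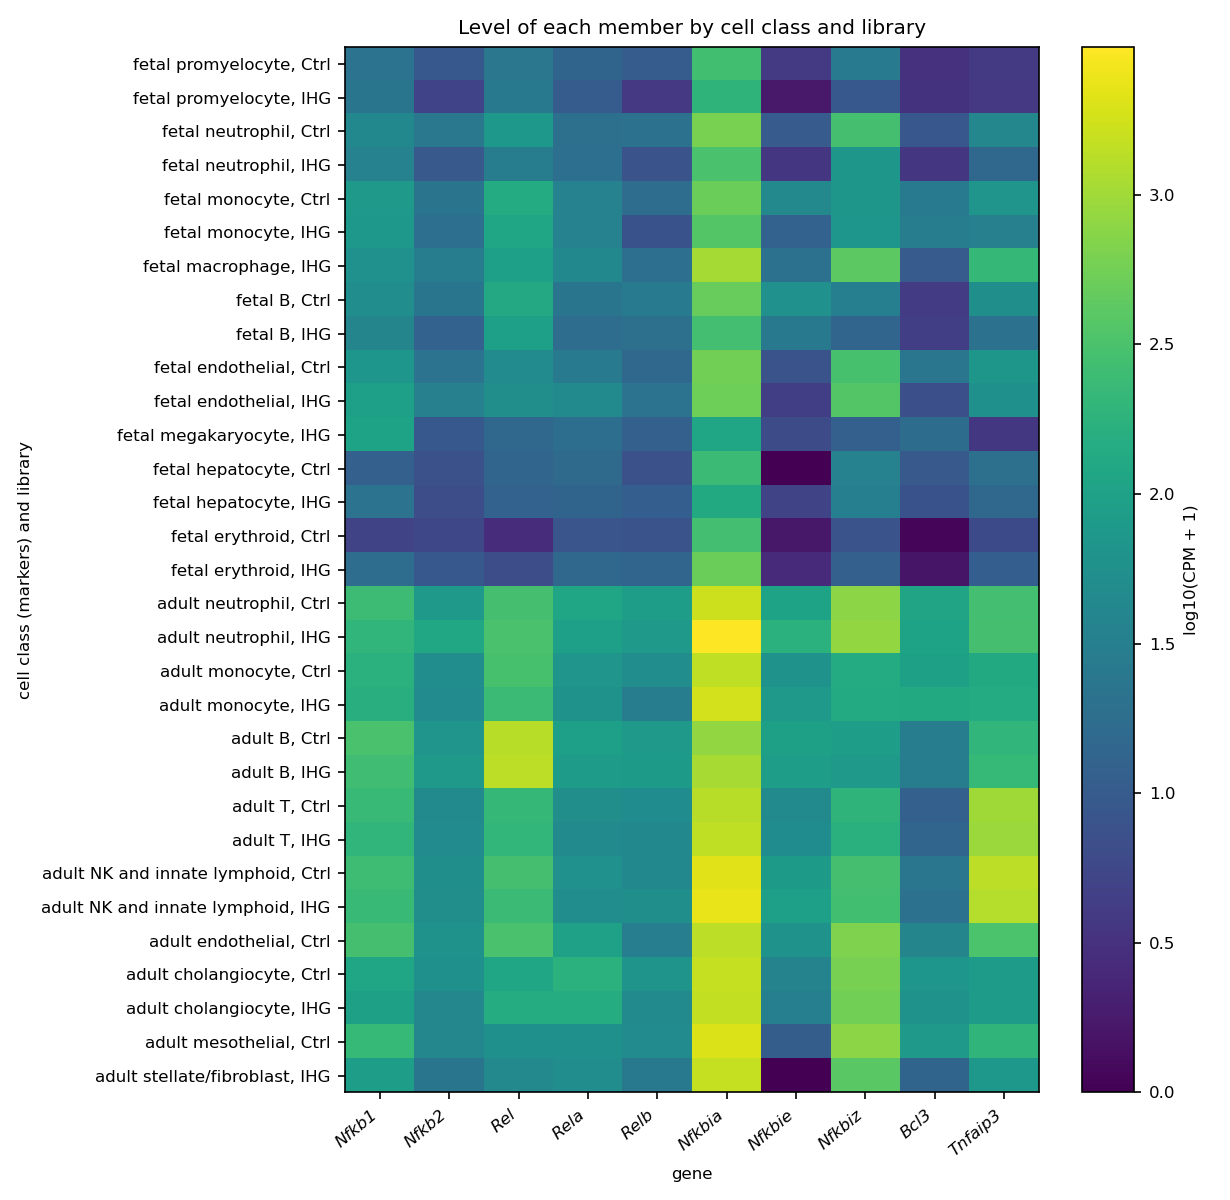
Level of each of the 10 genes as log10(CPM + 1) (colour), in the 31 sums of a cell class in 1 library that had at least 50 cells (rows). Adult rows are brighter than fetal rows for most genes, Rel stands out in adult B-like cells (1315 and 1378 CPM), and Tnfaip3 in adult T-like and NK and innate lymphoid-like cells.

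In the fetal neutrophil lineage, the inhibitors and the subunits Nfkb2, Rel and Relb were lower in IHG than in Ctrl. Nfkb1 and Rela were close and changed sign with the processing. The lineage joins promyelocyte-like and neutrophil-like cells (clusters 13, 5, 4 and 6), with 1063 Ctrl and 2481 IHG cells. Nfkbiz stood at 251 CPM in Ctrl and 55.9 in IHG, a ratio of -2.17 (95% interval -2.27 to -2.07), or 4.5-fold lower. Nfkbie stood at 8.1 CPM in Ctrl and 2.1 in IHG, a ratio of -1.94 (95% interval -2.50 to -1.40). Both counts of Nfkbie are small, at 72 and 48 UMIs. Tnfaip3 stood at 34.5 CPM in Ctrl and 11.1 in IHG and Bcl3 at 7.09 CPM in Ctrl and 2.5 in IHG, ratios of -1.63 and -1.50. Nfkbia had 561 CPM in Ctrl and 280.5 in IHG, a ratio of -1.0 (95% interval -1.05 to -0.95) that ends just inside 2-fold.

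Of the subunits, Relb (ratio -1.66, 95% interval -2.0 to -1.32) and its partner Nfkb2 (-1.52, 95% interval -1.83 to -1.22) were furthest apart between the libraries. Relb had 18.45 CPM in Ctrl and 5.82 in IHG, and Nfkb2 21.5 CPM in Ctrl and 7.49 in IHG. Rel had 65.3 CPM in Ctrl and 28.4 in IHG, a ratio of -1.20 (95% interval -1.36 to -1.04). Nfkb1, at 38.4 CPM in Ctrl and 31.5 in IHG, had a ratio of -0.28 (95% interval -0.47 to -0.093), which turned positive in cells with at least 500 genes (0.053) and in cells thinned to 1000 UMIs (0.48). Rela, at 17.7 CPM in Ctrl and 16 in IHG, had a ratio of -0.14 (95% interval -0.41 to 0.14), and it turned positive only with each cell weighted alike (0.038). The median ratio of the 10 members was -1.51, while the median of all 10419 genes with at least 20 UMIs was 0.32. Scaling by the median of ratios in place of totals gave -0.57 for Nfkb1, -0.43 for Rela and -1.80 for the members' median. Past 2-fold lower were 7 of the 10 members (Nfkbiz, Nfkbie, Relb, Tnfaip3, Nfkb2, Bcl3 and Rel) and none higher, where 2.38% of all genes were past 2-fold lower. No single cell held more than 4.76% of a member's UMIs in either library.

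**Figure D2:**
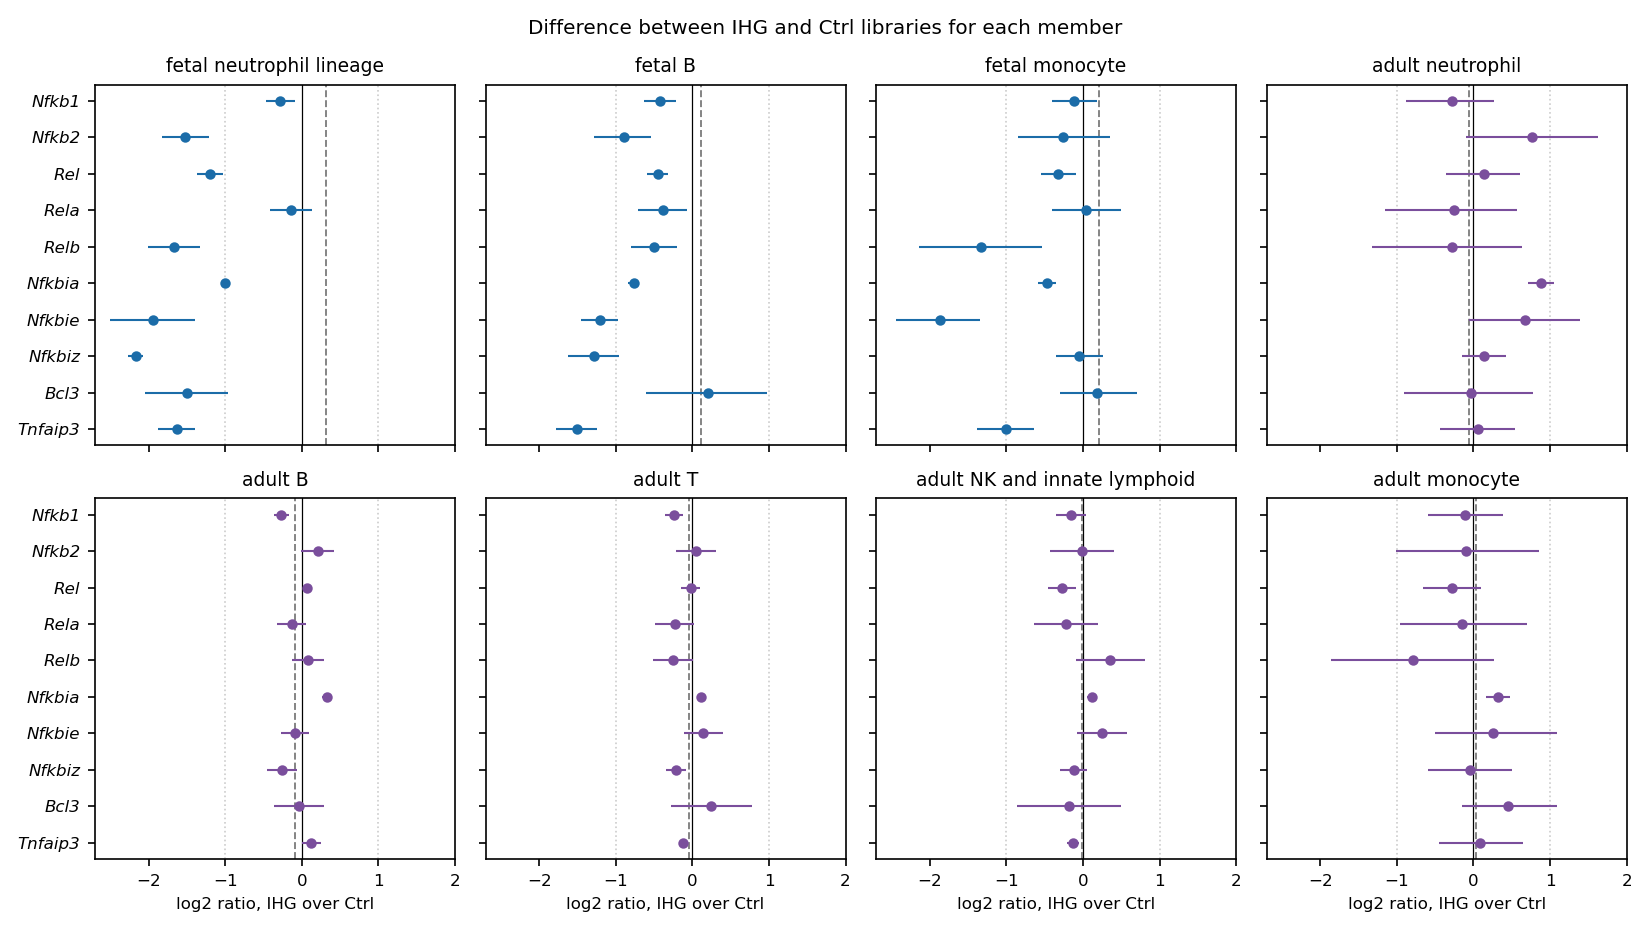
Ratio of IHG over Ctrl (log2, horizontal axis) of the 10 genes in 8 cell classes, with 95% intervals of counting error as bars; the dashed line is the median of all genes and dotted lines mark 2-fold. In fetal neutrophil lineage cells 8 points lie at or near -1 or below, while in adult B-like cells all lie between -0.27 and 0.33.

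The lower levels were seen within stages of the lineage, and with each stage given the same weight in both libraries the median was -1.34 with 7 members past 2-fold lower. The clusters are, by leading genes, 13 (Elane, Mpo and other promyelocyte genes; 120 Ctrl and 427 IHG cells), 5 (Camp and Ngp, myelocyte genes; 252 and 789), 4 (Ltf and Mmp8, genes of the later granules; 397 and 658) and 6 (Retnlg, a mature neutrophil gene; 294 and 607). All 10 genes were higher in cluster 6 than in cluster 13 in both libraries, by steps that stood at different places among all genes. The step of Rela exceeded that of 71.8% of all genes measured in Ctrl, that of Nfkb1 72.5%, and that of Rel in IHG 74.4%. Nfkbiz exceeded 97.6% of genes in Ctrl and 97.2% in IHG, and Tnfaip3 98% and 95.8%. Nfkbiz went from 25.6 to 596 CPM in Ctrl and from 8.27 to 151 in IHG. Tnfaip3 went from 2.92 to 106 CPM in Ctrl and from 2.76 to 33.6 in IHG. Its starting levels in cluster 13 rest on just 4 UMIs in Ctrl and 15 in IHG. The log2 step of Tnfaip3 in Ctrl has an interval of 3.80 to 7.08. For Rel and Nfkbia the counting intervals of the step from cluster 13 to cluster 6 did not overlap between the libraries. Rel went from 23.4 to 104 CPM in Ctrl and from 24.6 to 40.7 in IHG. Its log2 ratio of cluster 6 over 13 was 2.13 in Ctrl (1.60 to 2.74) and 0.73 in IHG (0.37 to 1.08). For Nfkbia that ratio was 1.85 in Ctrl (1.68 to 2.02) and 1.43 in IHG (1.31 to 1.54). In cluster 13 itself Rel had 23.4 CPM in Ctrl and 24.6 in IHG, with no difference beyond counting error.

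In cluster 6, the Retnlg-led cells, Nfkbiz had 596 CPM in Ctrl and 151 in IHG, a ratio of -1.98 (95% interval -2.14 to -1.83). Tnfaip3 had 106 CPM in Ctrl and 33.6 in IHG and Nfkbia 969 CPM in Ctrl and 496 in IHG, ratios of -1.66 and -0.96. Rela had 23.1 CPM in Ctrl and 24.1 in IHG and Nfkb1 39.1 CPM in Ctrl and 41.9 in IHG, with intervals of the ratio that included 0. Past 2-fold lower were 7 of 10 members there (3.02% of all genes), 8 of 10 in cluster 4 (2.78%), 5 of 10 in cluster 5 (2.27%) and 3 of the 7 with at least 20 UMIs in cluster 13 (2.22%). The median ratios were -1.27, -1.65, -0.99 and -0.54 in that order. Relb and Nfkbiz were lower in all 4 clusters with intervals below 0: Relb at -1.79, -1.71, -1.63 and -1.11 in clusters 13, 5, 4 and 6, and Nfkbiz at -1.63, -1.91, -1.83 and -1.98. Stage markers were not the same in the 2 libraries within a cluster. In cluster 13 the promyelocyte list summed to 14936 CPM in Ctrl and 21858 in IHG, and the mature neutrophil list to 4257 and 2524. In cluster 5 Mmp8 had 61.9 and 216 CPM, and the mature neutrophil list 11072 and 10111. In cluster 4 the myelocyte list had 81445 and 98304, and the mature neutrophil list 23044 and 22359. In cluster 6 the mature neutrophil list summed to 39268 and 41518 CPM, Camp to 7469.5 and 5689, and the promyelocyte list to 20.5 and 61.8. The part of stage within a cluster in the members' ratios was not tested. Median UMIs per cell of cluster 6 were 5184 and 5446.

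**Figure D3:**
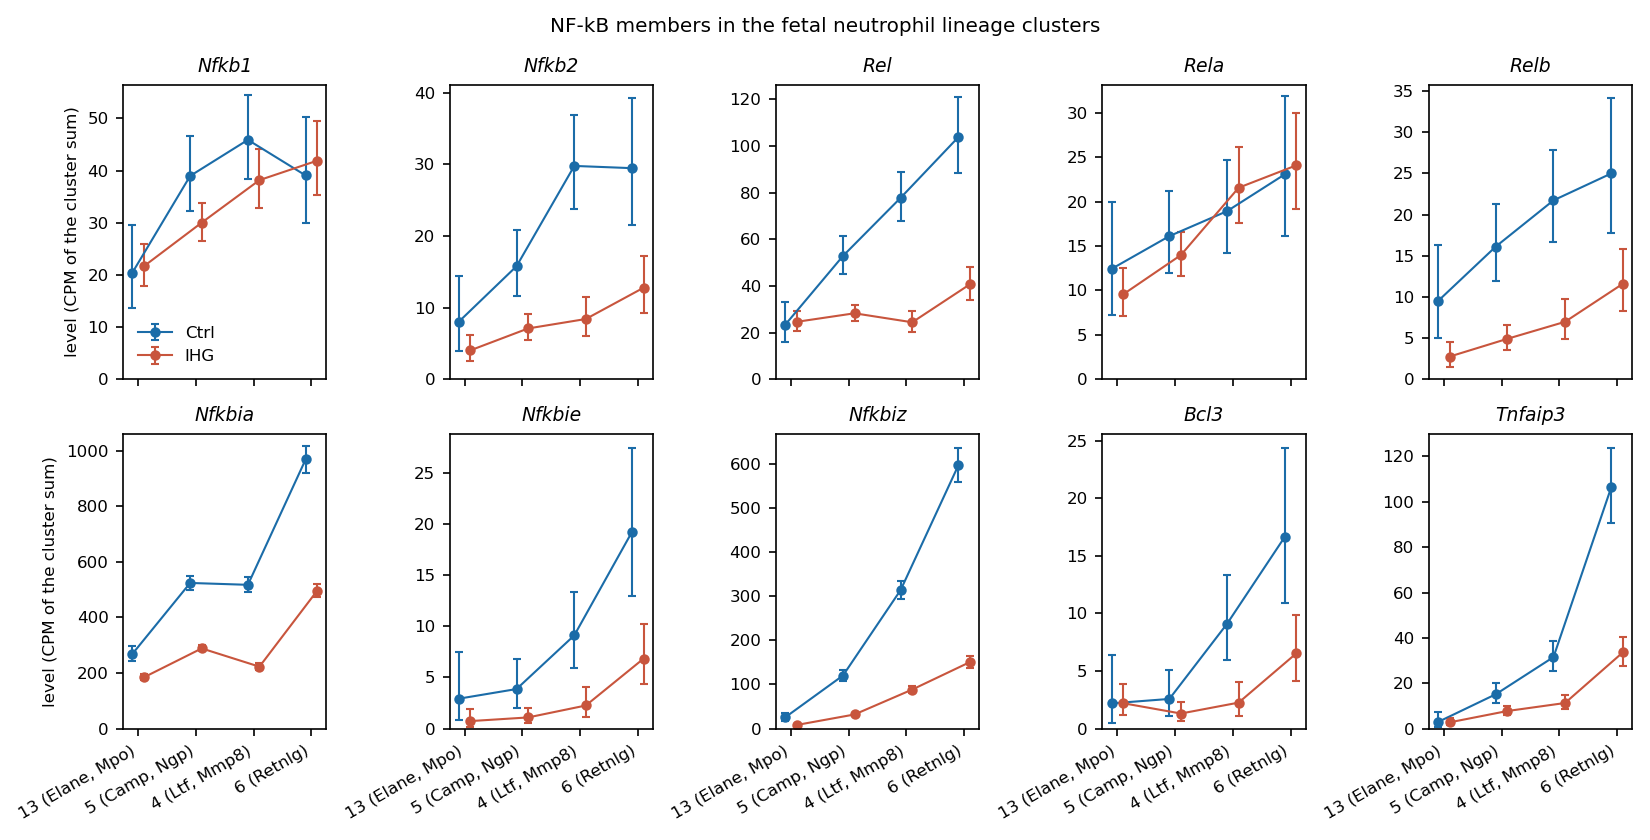
Level (CPM, vertical axis from 0, a scale for each gene) of the 10 genes in 4 fetal clusters ordered by stage markers, for Ctrl (blue) and IHG (red) with 95% intervals of counting error. Nfkbiz reached 596 CPM in Ctrl and 151 in IHG in cluster 6, while the Rela intervals overlapped in every cluster.

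The share of cells of cluster 6 with a UMI was lower in IHG too. After each cell was thinned to 1000 UMIs, Nfkbiz was seen in 43.8% (38.1 to 49.7%) of 292 Ctrl and 14.8% (12.1 to 17.9%) of 607 IHG cells of cluster 6. Without thinning these were 84.7% and 45.8%. Erythroid-like cells, in which Nfkbiz is low, gave 0.48% and 0.474% after the same thinning, from medians of 12146 and 16489 UMIs. Nfkbia was seen in 58.9% (53 to 64.6%) and 29% (25.4 to 32.8%) of the thinned cells of cluster 6, and in 19.7% and 30% of erythroid-like cells. Those cells held 280.0 and 517 CPM of it, so they give no background for this gene. For Tnfaip3 the shares were 11.6% (8.2 to 15.9%) and 4.45% (2.95 to 6.41%), against 0.57% and 0.365% in erythroid-like cells.

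Other genes of the pathway were read in the fetal neutrophil lineage. Of the measured target genes (cytokines, survival and feedback genes known to respond to NF-kB) 19 of 28 were lower in IHG, with a median of -0.67. Past 2-fold lower were 8, where 2.38% of all genes were, and 2 were past 2-fold higher. The shares of all genes lower at any size or past 2-fold higher are not given here, for this list or the others. Among those of at least 20 CPM in 1 library the 4 largest differences were Ccrl2, a chemokine-binding receptor (43.4 against 10.2 CPM), Sod2, the mitochondrial superoxide dismutase (225 against 57.5 CPM), Nlrp3, the inflammasome sensor (71.8 against 25.4 CPM), and Gadd45b, a stress gene (28.8 against 11 CPM), in Ctrl against IHG. Among other inhibitors 6 of 14 were lower and the median was 0.096. Zc3h12a, an RNase that degrades cytokine mRNAs, had 39.3 against 7.58 CPM, N4bp1 129 against 37.8 CPM, and Nfkbib (IkB beta) 35.8 against 16.9 CPM. Nkap, which is on this list although its name describes it as an NF-kB activating protein, went the other way, at 14.1 against 28.5 CPM. The counts and the median of the list include it. Kinases were mostly alike (3 of 11 lower, median 0.054), apart from Map3k8, a kinase held by the Nfkb1 precursor, at 95.1 against 13.8 CPM. Tab2, an adaptor of the TAK1 kinase and the other one that reached 20 CPM, had 20.3 against 20.4 CPM. Receptors and adaptors were split (13 of 22 lower, median -0.071), with Tnfrsf1b, a TNF receptor, at 20.9 against 6.92 CPM, Malt1 at 30.9 against 14.4 CPM, Myd88 at 47.6 against 26.3 CPM and Irak3 at 38.1 against 21.4 CPM.

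Lists of other signals were read beside these values. The immediate-early genes, which tissue digestion can induce, summed to 2086 CPM in Ctrl and 1614 in IHG in the fetal neutrophil lineage, with 9 of 16 lower and a median ratio of -0.11. Heat shock genes had 7 of 8 higher in IHG (median 0.60). Haemoglobin RNA, from other cells, summed to 15761 and 9353 CPM, and 8 hepatocyte genes to 84.3 and 202, with none of the 8 at 0. Their part in the members' ratios was not tested. With cells over 10% haemoglobin UMIs left out, the members' median was -1.53.

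Fetal B-like cells showed a smaller difference in the same direction. They were 2213 Ctrl and 995 IHG cells in 4 clusters. Among the inhibitors Tnfaip3 had 54.2 CPM in Ctrl and 19 in IHG, a ratio of -1.51 (95% interval -1.79 to -1.24), Nfkbiz 31.3 CPM in Ctrl and 12.9 in IHG (-1.28, 95% interval -1.63 to -0.95), and Nfkbie 56.8 CPM in Ctrl and 24.6 in IHG (-1.20, 95% interval -1.45 to -0.97). Nfkbia had 484 CPM in Ctrl and 284 in IHG, a ratio of -0.77 (95% interval -0.84 to -0.70). Bcl3 was scarce, at 35 and 25 UMIs, and its ratio of 0.20 (95% interval -0.61 to 0.98) had an interval that included 0. All 5 subunits were lower with intervals below 0: Nfkb2 at -0.90, Relb at -0.50, Rel at -0.45, Nfkb1 at -0.42 and Rela at -0.38. Past 2-fold lower were 3 of 10 members, Tnfaip3, Nfkbiz and Nfkbie, where 3.12% of all genes were. The median was -0.63, and -0.41 when each cell was weighted alike, against 0.12 over all 11152 genes.

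The 4 B-like clusters differed in level. Cluster 7 (Vpreb1 and Igll1, early B cell genes) had 97.8 CPM in Ctrl and 34.8 in IHG of Tnfaip3, cluster 0 (Igkc, a light chain) 88 CPM in Ctrl and 29.2 in IHG, and cluster 15 (histone genes) 71.9 CPM in Ctrl and 23.2 in IHG. Cluster 14 (Crip1 and Nrgn) was low in both, at 8.53 CPM in Ctrl and 3.16 in IHG. The ratios for Tnfaip3 were -1.49, -1.58, -1.59 and -1.38, each with an interval below 0. Nfkbia, Nfkbie, Nfkbiz and Rel also had intervals below 0 in all 4 clusters. Bcl3 went the other way in cluster 0, on 15 Ctrl and 17 IHG UMIs, with a ratio of 1.22 (95% interval 0.13 to 2.33). The member medians were -0.78 in cluster 7, -0.29 in cluster 0, -0.58 in cluster 15 and -0.91 in cluster 14.

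**Figure D4:**
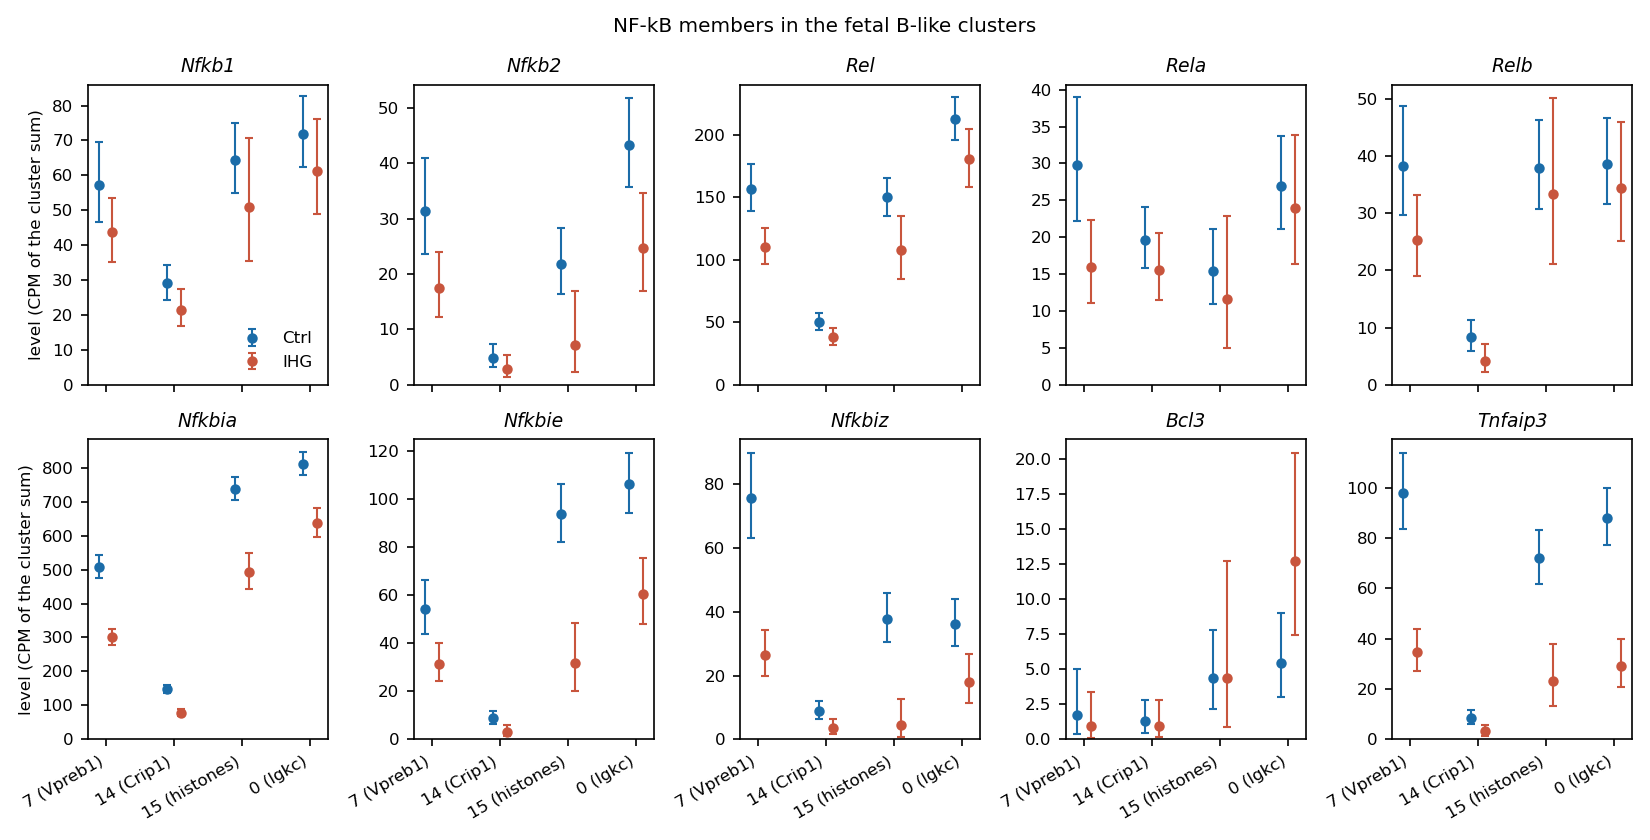
Level (CPM, vertical axis from 0, a scale for each gene) of the 10 genes in the 4 fetal B-like clusters, named by number and leading genes, for Ctrl (blue) and IHG (red) with 95% intervals of counting error. Tnfaip3 lay lower in IHG in every cluster, and Rela intervals overlapped in clusters 14, 15 and 0.

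In fetal B-like cells the target list was lower too, with 17 of 24 genes lower, 12 past 2-fold and a median of -0.92. Of all genes in these cells 3.12% were past 2-fold lower. Ier3, a survival gene, had 68.7 against 16.4 CPM, Gadd45b 143 against 42.1 CPM, and Icam1, an adhesion molecule, 40.1 against 15.6 CPM, while Ccl4, a chemokine, had 28.4 against 41.9 CPM. Hepatocyte genes went the other way, 8 of 8 higher, at 84.6 and 229 CPM summed. On the list of other inhibitors, Nfkbid (IkB NS) had 77.8 against 21.5 CPM. Nkap, named as an activating protein, had 38.6 against 65 CPM, and the list's median with it was 0.069. Map3k8 had 33.7 against 17 CPM, and the kinase list's median was -0.057 over 11 genes. Tnfrsf13c, the BAFF receptor that feeds the alternative pathway in B cells, had 93.7 against 58.8 CPM. The immediate-early genes moved with the members here: all 16 were lower in IHG, 13 past 2-fold, with a median of -1.66 and a sum of 5354 CPM in Ctrl against 2862 in IHG. Their part in the members' ratios was not tested.

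Fetal monocyte-like cells (235 Ctrl and 355 IHG) differed in fewer members. Nfkbie had 43.1 CPM in Ctrl and 11.7 in IHG, a ratio of -1.87 (95% interval -2.43 to -1.34). Relb had 16.7 CPM in Ctrl and 6.63 in IHG (-1.33, 95% interval -2.14 to -0.53), and Tnfaip3 64.7 CPM in Ctrl and 32.1 in IHG (-1.01, 95% interval -1.38 to -0.64). These were the 3 of 10 past 2-fold lower, where 2.88% of all genes were. Nfkbiz, the member furthest apart in the neutrophil lineage, had 70.6 CPM in Ctrl and 68.4 in IHG in monocyte-like cells. Nfkbia (-0.47) and Rel (-0.32) had intervals below 0, and Nfkb1, Nfkb2, Rela, Nfkbiz and Bcl3 had intervals that included 0. Of the target genes 17 of 28 were lower (median -0.26); Cxcl10, an interferon-induced chemokine, had 150.4 against 13.8 CPM and Ccrl2 89.5 against 38 CPM. Ccl2, a monocyte chemokine, had 257 against 515 CPM, and Csf1, a macrophage growth factor, 4.85 against 21.2 CPM. Immediate-early genes were lower in 14 of 16 (median -0.57), and haemoglobin RNA summed to 75054 CPM in Ctrl and 13565 in IHG. Their part was not tested.

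Other fetal classes did not share one direction. The 32 Ctrl and 40 IHG NK and innate lymphoid-like cells had 1376 CPM in Ctrl and 551 in IHG of Nfkbia, a ratio of -1.32 (95% interval -1.56 to -1.08), and 249 CPM in Ctrl and 81.2 in IHG of Tnfaip3 (-1.61, 95% interval -2.25 to -1.01). Immediate-early genes were lower in 14 of 14 measured in the same cells, summing to 9217 and 4135 CPM, and haemoglobin was 9.18% of UMIs in Ctrl and 0.635% in IHG. Their part was not tested. In endothelial-like cells (62 and 168; leading genes Fabp4 and Lyve1, with the stromal gene Dcn) Nfkbia had 556 CPM in Ctrl and 522 in IHG and Nfkbiz 296 CPM in Ctrl and 358 in IHG. No member of the 8 measured there was past 2-fold either way, where 17.4% of all genes were. Bcl3 and Nfkbie had too few UMIs there to be counted, and both ratios were below -1. Bcl3, on 10 Ctrl and 9 IHG UMIs, had a ratio of -1.87 (95% interval -3.35 to -0.43). Nfkbie, on 3 Ctrl and 5 IHG UMIs, had a ratio of -1.07 (95% interval -3.35 to 1.70). In hepatocyte-like cells Nfkbia had 237 CPM in Ctrl and 133 in IHG, a ratio of -0.83 (95% interval -1.13 to -0.53), and the other 5 measured members had intervals that included 0. Macrophage-like cells were 352 in IHG and 6 in Ctrl, too few for a ratio. In the IHG library they held 1048 CPM of Nfkbia, 415 of Nfkbiz and 214 of Tnfaip3. Erythroid-like cells as a whole had higher CPM of all 10 members in IHG when scaled by totals (Nfkbia 280.0 and 517 CPM; median 0.94), as did most genes (median 0.68), with haemoglobin at 52.2% of UMIs in Ctrl and 36.8% in IHG. Within cluster 11, early erythroid-like cells (122 and 474), Nfkbia had 639 CPM in Ctrl and 869 in IHG and no member was past 2-fold, where 6.89% of all genes were. In summed counts, fewer expressing cells and less RNA per cell cannot be told apart.

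In the adult libraries the members were close between IHG and Ctrl in most classes, and Nfkbia in neutrophil-like cells was the largest difference with an interval apart from 0 in the classes of over 50 cells in each library. Neutrophil-like cells (187 Ctrl and 107 IHG) had 1689.7 CPM in Ctrl and 3119 in IHG of Nfkbia, a ratio of 0.88 (95% interval 0.72 to 1.05). Nfkb2 had 73.7 CPM in Ctrl and 125 in IHG (0.77, 95% interval -0.097 to 1.62) and Nfkbie 105 CPM in Ctrl and 167 in IHG (0.68, 95% interval -0.057 to 1.39), on 26 and 24 UMIs and 37 and 32 UMIs. Nfkbiz had 759.8 CPM in Ctrl and 836 in IHG and Tnfaip3 281 CPM in Ctrl and 293 in IHG, within counting error. No member was past 2-fold, where 8.41% of all genes were. The stage of these cells was not the same: Camp had 3924 CPM in Ctrl and 26.1 in IHG, and Retnlg 10657 and 14575. Immediate-early genes were higher in IHG in 12 of 14 (median 0.25), and of the target genes Il1b, an inflammatory cytokine, had 2129 against 4101 CPM. Ptgs2, the inducible cyclooxygenase, had 352 against 632 CPM, Cxcl10 45.4 against 157 CPM and Cxcl1, a neutrophil chemokine, 28.4 against 88.8 CPM. The part of stage and immediate-early genes was not tested.

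Adult B-like cells, 1837 in Ctrl and 3430 in IHG, had 856 CPM in Ctrl and 1075 in IHG of Nfkbia (ratio 0.33, 95% interval 0.27 to 0.39) and 1315 CPM in Ctrl and 1378 in IHG of Rel (0.067, 95% interval 0.019 to 0.12). Nfkb1 was lower, at 314 CPM in Ctrl and 261 in IHG (-0.27, 95% interval -0.37 to -0.16). Nfkbiz had 89.7 CPM in Ctrl and 75.2 in IHG (-0.26, 95% interval -0.45 to -0.061), and Tnfaip3 201 CPM in Ctrl and 219 in IHG (0.12, 95% interval 0.00027 to 0.25). In T-like cells Nfkbia had 1325 CPM in Ctrl and 1428 in IHG, Tnfaip3 995 CPM in Ctrl and 916 in IHG and Nfkb1 232 CPM in Ctrl and 197 in IHG. In NK and innate lymphoid-like cells Nfkbia had 2171 CPM in Ctrl and 2358 in IHG and Rel 289.8 CPM in Ctrl and 239 in IHG. Monocyte-like cells (71 and 102) had 1449 CPM in Ctrl and 1805 in IHG of Nfkbia, a ratio of 0.32 (95% interval 0.16 to 0.47), and cholangiocyte-like cells had 1528 CPM in Ctrl and 1494 in IHG. No member was past 2-fold in B-like, T-like, NK and innate lymphoid-like, monocyte-like or cholangiocyte-like cells, where 2.08%, 2.66%, 3.14%, 6.0% and 3.97% of all genes were. The member medians were 0.013, -0.071, -0.13, -0.078 and -0.18 in that order. Pathway lists were close as well: in B-like cells the target list had a median of -0.094 over 23 genes, the same value as over all genes. In endothelial-like cells, 61 Ctrl and 46 IHG, Relb had 29.8 CPM in Ctrl and 97.5 in IHG, on 7 and 19 UMIs.

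In neutrophil-like, B-like and monocyte-like cells all 10 members had higher levels in adult than in fetal cells of the same class, in both Ctrl and IHG. The interval of that log2 ratio included 0 only for Nfkbie in monocyte-like Ctrl cells (-0.23 to 1.22). In neutrophil-like cells Nfkbia had 614 CPM in the fetal and 1689.7 in the adult Ctrl library, and 310.4 and 3119 in the IHG libraries. For Nfkbiz the values were 293 CPM in the fetal and 759.8 in the adult Ctrl library, and 70.8 and 836 in the IHG libraries. Rel in B-like cells had 126 CPM in the fetal and 1315 in the adult Ctrl library, and 91.6 and 1378 in the IHG libraries. Rel was among the 10 leading genes of adult B-like clusters 0 and 1, and fetal B-like cluster 7 was led by early B cell genes. In neutrophil-like cells all 10 members were past 2-fold higher in adults in Ctrl, where 38.5% of all genes were, and all 10 in IHG (34.7%). In B-like cells 8 were in Ctrl (19.7%) and 10 in IHG (18.8%), and in monocyte-like cells 7 in Ctrl (12.9%) and 8 in IHG (11.5%). The member medians (log2 of adult over fetal) were 2.37 and 3.52 in neutrophil-like, 1.74 and 2.62 in B-like and 1.12 and 1.79 in monocyte-like cells. The immediate-early genes were higher in adults as well, with medians of 3.19 and 3.94, 1.73 and 3.86, and 0.74 and 1.44 in the same order. Age, perfusion, maturity and library depth cannot be told apart here.

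**Figure D5:**
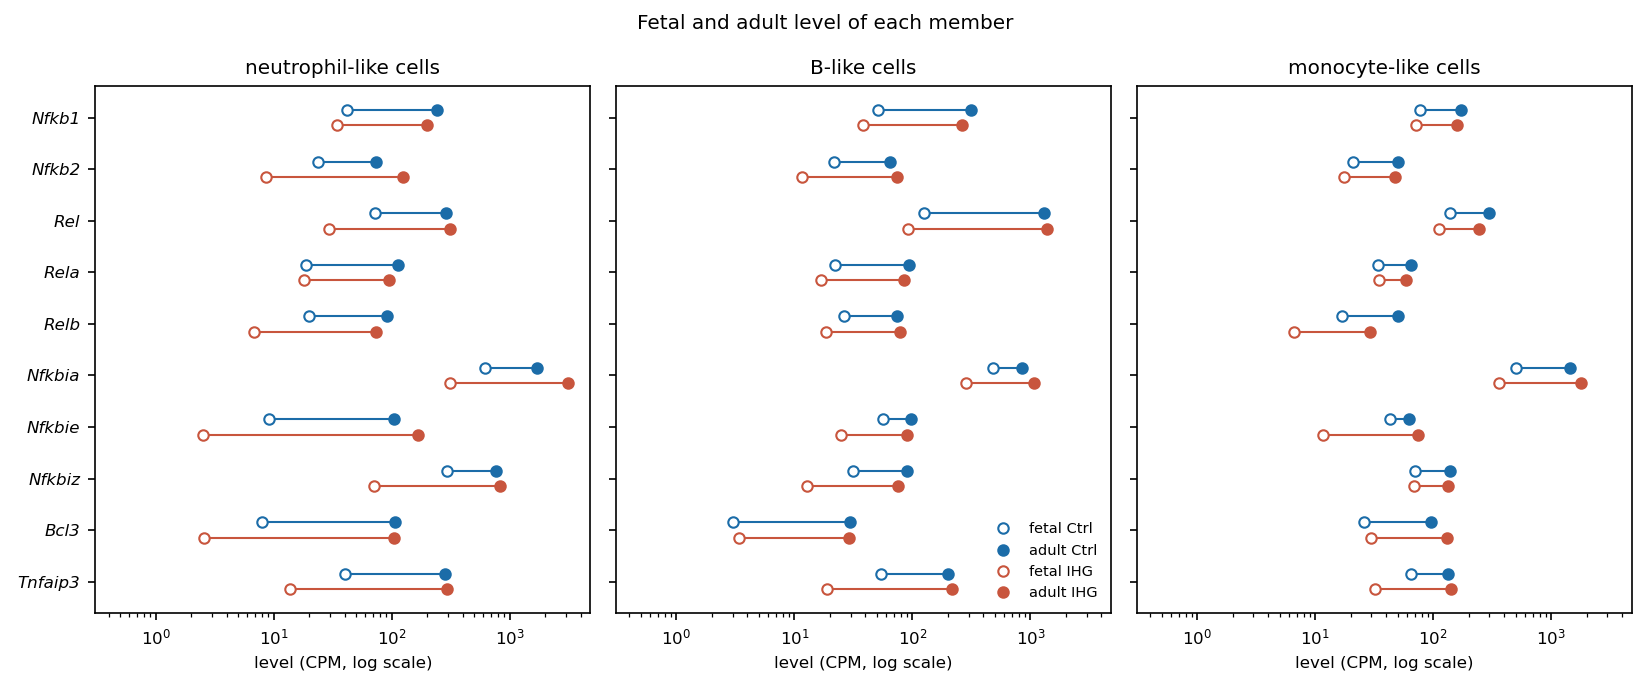
Level (CPM, log axis) of each of the 10 genes in fetal (open) and adult (filled) cells of 3 classes, for Ctrl (blue) and IHG (red); a line joins the 2 ages of one group. Every filled point shows a higher level than its open point, and in neutrophil-like cells the fetal IHG level is well below fetal Ctrl for the 8 genes other than Nfkb1 and Rela.

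Over the 31 sums of a class in a library, the members' levels varied together to different degrees. The points share their library and age, so the values are a description. Pearson's r of log2(CPM + 1) was 0.924 for Nfkb2 with Relb, the highest of the 45 pairs, 0.917 for Nfkb2 with Rela, and 0.479 for Nfkbiz with Nfkbie, the lowest. Among the 8031 genes compared, each with at least 1000 UMIs, those most like Nfkb2 were Kdm6b (r = 0.948), Zc3h12a (r = 0.94), H2-D1 (r = 0.937). Those most like Nfkb1 were Ube2d3 (r = 0.96), Zc3h7a (r = 0.953), Nr4a1 (r = 0.951). For Nfkbia they were Sqstm1 (r = 0.911), H2-D1 (r = 0.903), Ifrd1 (r = 0.898), and for Nfkbiz Kif1b (r = 0.896), Tgoln1 (r = 0.885), Ddx3x (r = 0.882). Zc3h12a encodes an inhibitor of the pathway, and Sqstm1 (the nearest to Nfkbia) an autophagy receptor.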

How the data were processed

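Single-cell libraries of 4 groups, 1 each, were read from the deposited tables of UMI counts per gene and cell, whose file headers give Cell Ranger 5.0.0 as the software. The authors' values are whole-number counts, per the file headers. The submitters' processing notes list mm10 and Seurat, with no role stated. Cells needed 300 genes or more and no more than 25% of UMIs from mitochondria. After doublets were removed, 7594 Ctrl and 7925 IHG cells were left in the fetus and 4951 and 6500 in the adult. Doublets were called with Scrublet's own threshold in the fetal libraries. In the adult ones that threshold marked under 0.5%, so scores above the 95th percentile were removed. Ctrl and IHG of one age went into 1 clustering with scanpy 1.11.5 (2000 variable genes without the members and pathway genes, 30 components, Leiden resolution 1.0), and clusters were named from marker lists. Leaving haemoglobin genes out of the leading genes was chosen after seeing the data. Counts were summed per class and library, and ratios have exact conditional Poisson intervals (scipy 1.17.1), checked on simulated data. A ratio counts as past 2-fold with at least 20 UMIs over both libraries. The members and lists were chosen with earlier results of these data known. Of each pathway list, at most 4 genes with the largest ratio and at least 20 CPM in 1 library were named. Alternatives covered the filters, resolution, doublets, scaling, cell and stage weights and thinning. Intervals and shares (exact Clopper-Pearson) cover counting error only. Clusters 16, 17 and 24 of the fetal and 9 of the adult libraries stayed unnamed. They were not used, apart from the level of Rel in adult cluster 9.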

Additional observations from a re-analysis of the deposited data

Results flagged for a closer look

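Every member was compared between the ages in neutrophil-like, B-like, monocyte-like, NK and innate lymphoid-like and endothelial-like cells. In 6 cases a gene's IHG over Ctrl ratio (log2) had opposite signs at the 2 ages, with both counting intervals apart from 0. Each rests on 1 library per group and age, and the difference between ages was not tested. Nfkbia accounted for 4 of them: it was -0.98 in fetal and 0.88 in adult neutrophil-like cells, -0.77 and 0.33 in B-like cells, -0.47 and 0.32 in monocyte-like cells, and -1.32 and 0.12 in NK and innate lymphoid-like cells. In B-like cells Rel was -0.45 in the fetus and 0.067 in the adult, and Tnfaip3 -1.51 and 0.12. The lower bounds of the adult B-like intervals of Rel and Tnfaip3, 0.019 and 0.00027, lie close to 0. The share of all genes that meet the same rule is not given here. The 6 cases therefore have no background and do not set the members apart from other genes.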

How the results depend on the processing

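The members' median in the fetal neutrophil lineage stayed negative under every alternative run, from -1.80 with median-of-ratios scaling to -1.16 in cells with at least 500 genes, and 6 to 8 members were past 2-fold lower. In fetal B-like cells the median was -0.41 with each cell weighted alike, against -0.63, and the cause was not tested. With the line drawn at 1.5-fold, 5 members counted as lower there in place of 3, as a lower line allows. The limits of 10% mitochondrial UMIs and of equal weights for B-like clusters were chosen after seeing the data. Adult monocyte-like cells gave no value with each library clustered by itself. Cluster values were not recomputed under other clusterings. Under the other alternatives, the members past the line lower numbered 0 to 4 in fetal cluster 13 and 2 to 8 in cluster 5. They numbered 4 to 8 in cluster 4 and 3 to 8 in cluster 6, and the members' median stayed negative in each. No paired analysis was possible because each group is 1 library, and no library could be left out for the same reason. Depth limits Bcl3 and Nfkbie most, which had under 100 UMIs in either library of the fetal neutrophil lineage.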
